A study of Homo sapiens with 4 samples.

Results

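The clustered histone genes are the genes for the core and linker histones that lie in tandem on chromosomes 1 and 6. They were taken as the protein-coding genes of GENCODE release 44 on these chromosomes with the symbols H2AC, H2BC, H3C or H4C and a number, together with H1-1 to H1-6. The rule gave 68 of 20033 protein-coding genes, namely 6 for H1, 17 for H2A, 18 for H2B, 13 for H3 and 14 for H4. Of these, 34 lay at chr6:25723397-26285638, 5 at chr6:27125897-27147562, 16 at chr6:27807479-27893891, 11 at chr1:149782689-149887965 and 2, H2AC25 and H2BC26, at chr1:228434777-228463104 (hg38). Chromatin accessibility was measured by ATAC-seq, in which the Tn5 transposase inserts sequencing adapters into open DNA, in pancreatic progenitors derived from MEL1, an established human embryonic stem cell line that the study's methods name MEL1 INS GFP/W, after the GFP reporter in its insulin gene. The cells were kept for 7 days in EF6, a medium with EGF, bFGF and a TGFβ inhibitor, either with DMSO as the control or with 1 μM I-BET151, an inhibitor of the BET bromodomain proteins that read acetylated histones. Each condition had 2 libraries. All libraries came from this 1 cell line, and no source used here says whether the libraries of a condition were separate differentiations, so the p-values measure only the spread between these libraries.

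These genes supply the histones that package newly copied DNA. Their transcription rises as cells enter S phase, with NPAT as the coactivator that gathers at the clusters in the histone locus body, and most of their mRNAs end in a stem-loop bound by SLBP in place of a poly(A) tail. H2A and H2B genes are often arranged head to head, so that a short stretch of DNA serves as the promoter of both. Promoters of each class carry known elements, such as the octamer bound by POU2F1 in H2B genes, the H1 box in H1 genes and site II, bound by HINFP, in H4 genes. BET proteins bind acetylated histone tails at active promoters and enhancers and help to recruit the transcription machinery.

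The promoter sequences of RefSeq (GRCh38.p14) were matched to 63 of the 68 members, and all 63 started at the same base as in GENCODE. Not matched were H4C1, H4C3, H2AC12, H3C11 and H3C12. The 250 bases before the start of 6 members are shown 5′ to 3′ along the gene, because they stand for the patterns described here. H2BC15 was among the members with the strongest peaks and H2BC14 was called in no list. H2AC4 had the largest drop in rank with I-BET151. H1-3, H2BC9 and H4C9 were called at the start only in the I-BET151 lists. Capitals mark the letters searched for the TATA box, the CCAAT box, the octamer, the H1 box and part of site II, read on either strand. No one of these strings of letters contains another.
H2BC15 (chr6:27838319-27838568, plus strand): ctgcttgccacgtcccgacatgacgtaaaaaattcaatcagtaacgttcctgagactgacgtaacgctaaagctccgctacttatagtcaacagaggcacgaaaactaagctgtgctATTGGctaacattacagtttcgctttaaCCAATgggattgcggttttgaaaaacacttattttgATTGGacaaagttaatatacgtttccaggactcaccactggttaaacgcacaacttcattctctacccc
H2BC14 (chr6:27814772-27815021, plus strand): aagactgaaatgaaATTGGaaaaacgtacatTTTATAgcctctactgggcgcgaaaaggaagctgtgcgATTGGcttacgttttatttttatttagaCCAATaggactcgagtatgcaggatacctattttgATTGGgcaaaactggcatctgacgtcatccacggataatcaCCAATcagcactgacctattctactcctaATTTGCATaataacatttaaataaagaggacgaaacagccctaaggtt
H2AC4 (chr6:26033619-26033868, minus strand): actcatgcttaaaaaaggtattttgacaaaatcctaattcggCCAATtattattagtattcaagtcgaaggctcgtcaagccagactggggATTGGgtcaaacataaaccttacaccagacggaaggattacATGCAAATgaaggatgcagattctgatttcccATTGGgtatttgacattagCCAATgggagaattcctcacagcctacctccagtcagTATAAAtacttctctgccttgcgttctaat
H1-3 (chr6:26234988-26235237, minus strand): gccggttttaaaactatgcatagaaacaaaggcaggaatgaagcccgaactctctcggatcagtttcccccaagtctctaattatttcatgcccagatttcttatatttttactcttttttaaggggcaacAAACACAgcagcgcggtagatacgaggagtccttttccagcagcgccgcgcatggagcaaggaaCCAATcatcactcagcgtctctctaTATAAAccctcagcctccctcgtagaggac
H2BC9 (chr6:26251364-26251613, plus strand): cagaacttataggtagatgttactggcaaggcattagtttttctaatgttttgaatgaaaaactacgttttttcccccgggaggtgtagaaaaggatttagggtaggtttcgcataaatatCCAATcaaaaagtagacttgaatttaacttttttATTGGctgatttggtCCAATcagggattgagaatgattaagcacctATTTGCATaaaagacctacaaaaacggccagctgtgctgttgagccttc
H4C9 (chr6:27139032-27139281, plus strand): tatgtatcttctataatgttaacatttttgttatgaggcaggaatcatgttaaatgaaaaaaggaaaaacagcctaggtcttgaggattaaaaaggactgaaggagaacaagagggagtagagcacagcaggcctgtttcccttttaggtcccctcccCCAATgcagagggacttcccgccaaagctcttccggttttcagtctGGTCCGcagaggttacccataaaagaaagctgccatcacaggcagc

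The classes differed in the letters that their promoters held. In windows from 250 bases before to 50 after the start, the octamer (ATTTGCAT) stood in 14 of 18 H2B and 11 of 16 H2A members and in 0 members of the other classes, while 1.774% of 35116 such windows of all genes held it. All 6 H1 members held the H1 box letters (AAACACA), against 5.644% of all windows. The site II letters (GGTCCG) stood in 11 of 12 H4 members, against 11.28% of all windows. The CCAAT box stood in 51 of the 51 windows outside H4 and in 3 of 12 H4 windows, against 34.61% of all. The letters of the TATA box (TATAAA) stood in 41 of the 63 windows, against 11.53% of all. Letters were read on both strands, and the windows of an H2A–H2B pair with starts at most 251 bp apart cover much the same DNA. The genes of such a pair can share the same match, so their windows are not independent. These counts are matches of letters and not measured binding.

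Each deposited list gives the peaks of 1 library, each with a fold enrichment, that is the pileup of reads at the summit over the local background. Merging peaks that overlapped gave 164301 regions, and 60 of them lay within 1 kb of a member. Since each list has its own depth and threshold, a region was described by whether it was called and by its percentile, the rank of its fold enrichment among all peaks of that list, with 0 where it was not called. The lists held 38295 to 111324 peaks, and their genome background corresponds to 38.7 and 36.6 M reads in the DMSO libraries and only 12.5 and 16 M in the others. The shortest peak, which follows the length to which reads were extended, was 200 bp in both replicate 1 lists, 233 bp in DMSO replicate 2 and 256 bp in I-BET151 replicate 2. The label of the cells was read from marker starts. Peaks covered the start of 9 of 10 pancreatic progenitor markers in at least 1 list, PDX1 among them in the I-BET151 lists only, whereas PTF1A had none. The endocrine markers had 0 of 6 starts called and the pluripotency genes POU5F1 and NANOG had none, while SOX2 and LIN28B were called in every list. Starts were also called for 2 of 4 liver, 2 of 3 gut, 1 of 4 mesenchyme and 1 of 3 neural markers, and the part of such cells in the results was not tested.

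Peaks were found at most but not all clustered histone genes. The start of a gene is that of its Ensembl canonical transcript. A region lay within 1 kb of 47 members, a region covered the start of 41, and the start was called in all 4 lists for 29. Among the 31 regions over a start, the summit lay before the nearest start in 29, with a median distance of −74 bp. In both DMSO lists 44.1% of the member starts were called, against 51.7% of all protein-coding starts, and in all 4 lists 42.6% against 51.2%. Among the 58 members without a second copy, described next, the shares were 51.7% and 50%, close to those of all genes. These shares are descriptions without a test.

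The other 21 members had no region in any list. They were H1-1 and H1-6, which encode a somatic and a testis-specific linker histone, H2AC1, H2AC14, H2AC18, H2BC1, H2BC3, H2BC14, H2BC18, H3C1, H3C3, H3C11, H3C13, H3C14, H3C15, H4C1, H4C6, H4C7, H4C13, H4C14 and H4C15. H2AC1 and H2BC1 are known as testis-specific variants. Of the 21 members, 7 lie in duplicated DNA. The sequence from 500 bases before to 500 after the start was searched in hg38 at 98% identity, and 10 members had a second copy of at least 50% of it, 8 of them among the 11 members at chr1:149782689-149887965. Outside that interval, the members with such a copy were H4C11 (67.8% of the window) and H4C12 (67.5%). None of the 10 starts was called. Reads from such copies can be placed at either one, so that a missing peak there does not show closed chromatin. The other 14 members without a region had no such copy.

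**Figure D1:**
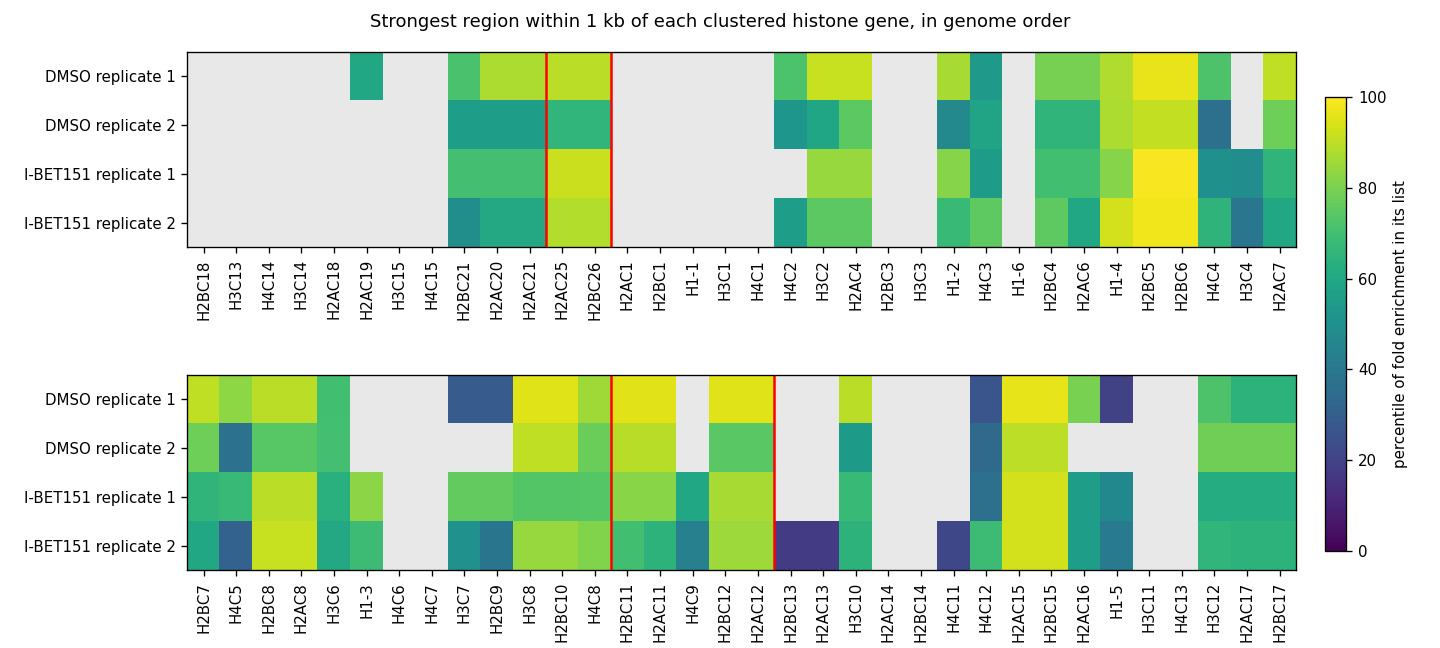
Percentile of the strongest region within 1 kb of each of the 68 clustered histone genes (columns, in genome order, upper row first) in each of the 4 libraries (rows). Grey cells mark genes with no peak in that list, red lines separate the 5 intervals, and the 21 genes with no region form grey columns, 7 of them among the first 8 genes.

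H2A and H2B starts were called more often in number than those of the other classes, a difference that was not tested. In all 4 lists, peaks covered 11 of 17 H2A starts and 11 of 18 H2B starts, against 3 of 13 for H3, 4 of 14 for H4 and 0 of 6 for H1, beside 51.2% of all protein-coding starts. Among them were 12 H2A–H2B pairs with starts 194 to 251 bp apart. In 9 of these pairs both starts were called in every list, and in 3 pairs, H2AC1/H2BC1, H2BC13/H2AC13 and H2AC14/H2BC14, neither was called in any. Both genes of a pair lie under 1 region, so they are not independent. Counting every head-to-head pair with starts within 1 kb, which adds H3C7/H2BC9, 18 of 26 paired members (69.2%) had a start called in all 4 lists, against 87.4% of the other protein-coding genes in such pairs. Outside pairs, and without a second copy, it was 11 of 32 members (34.4%), against 47.4% of the other genes outside pairs. By description, the octamer stood in 16 of 21 H2A and H2B windows called in all 4 lists and in 6 of 10 called in none. The windows of a pair overlap, so the same octamer can be counted for both genes. In the sequences above, H2BC14 carried the octamer and had no peak, whereas H2BC15 did not carry the octamer. The TATA letters in the H2BC14 sequence were read on the other strand, near the start of its partner H2AC14 and far from that of H2BC14. H2BC15 held no TATA letters. Both held CCAAT letters, 3 in H2BC15 and more in H2BC14.

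The strongest member region covered no start of a canonical transcript. It lay at chr6:26171656-26172385, after the end of H2BC5 and over the 5′ end of the H2BC6 gene model (chr6:26172059-26184655), with its summit at −11782 bp from the canonical H2BC6 start. Its percentile was 96.6 and 90.7 with DMSO and 99.2 and 97.7 with I-BET151, so both I-BET151 values were above both DMSO values. The rank shift, explained with the test of all shared regions, was 0.45 with adjusted p = 0.495 in limma, which does not pass the threshold.

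Next came the shared promoter of H2AC15 and H2BC15 (chr6:27838231-27838803). Its percentile was 96.3 and 89.97 with DMSO and 93.2 and 93.3 with I-BET151, and the conditions overlapped. The start of H2BC5 (chr6:26157629-26158303), which is also the nearest region to the linker histone gene H1-4, had 88.0 and 87.6 with DMSO and 81.9 and 93.1 with I-BET151. The promoter of H2BC8 and H2AC8 (chr6:26215588-26217548) had 89.7 and 74.1 with DMSO and 89.6 and 91.7 with I-BET151. In both of these the conditions overlapped as well.

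The fifth was the region over the starts of H3C8 and H2BC10 (chr6:26271346-26273097), the strongest at any H3 gene. It had 95.2 and 90.4 with DMSO and 73.3 and 84.5 with I-BET151, so that both I-BET151 values were below both DMSO values. Its rank shift was −1.20, with adjusted p = 0.072 in limma. H4C8 led the H4 class (chr6:26285356-26285979), with percentiles of 85.6 and 77.5 with DMSO and 73.8 and 81.0 with I-BET151.

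The pair outside the main clusters, H2AC25 and H2BC26, shared 1 region over both starts (chr1:228457289-228458339). It had 89.6 and 65.8 with DMSO and 92.1 and 88.6 with I-BET151, which overlapped, and its rank shift was 0.22 (adjusted p = 0.761, limma).

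At the lower end were members whose only regions were weak. H2AC13 and H2BC13 shared a region called in I-BET151 replicate 2 alone, at the 17.4 percentile. H4C11, which has a second copy, was likewise called in I-BET151 replicate 2 alone, at 21.7. The H1-5 start was called in DMSO replicate 1 at 19.5 and in the I-BET151 lists at 46.8 and 40.8.

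More member starts were called with I-BET151 than with DMSO, as for other genes. Starts were called for 35 and 31 members in the DMSO lists and for 39 and 41 in the I-BET151 lists. Of all 20033 protein-coding genes, starts were called for 11138 and 10620 with DMSO and for 12349 and 12880 with I-BET151. A region within 1 kb was called in both DMSO libraries for 36 members (52.9%), against 67.9% of all protein-coding genes, and in both I-BET151 libraries for 42 members (61.8%), against 78.0%. The share was higher with I-BET151 in both groups of genes, and the members were below the rest in both conditions. Over member regions, 41 and 32 were called with DMSO and 40 and 52 with I-BET151. The mean was 36.5 ± 6.36 against 46 ± 8.49 (SD, n = 2). A two-sided exact permutation test, whose smallest possible p is 0.33, gave p = 0.667. Over all merged regions, 78671 and 37658 were called with DMSO and 80816 and 111206 with I-BET151. In the H1 class, 1 of 6 starts was called in each DMSO list, H1-5 in replicate 1 and H1-2 in replicate 2. With I-BET151, 3 of 6 were called in each list, namely H1-2, H1-3 and H1-5.

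**Figure D2:**
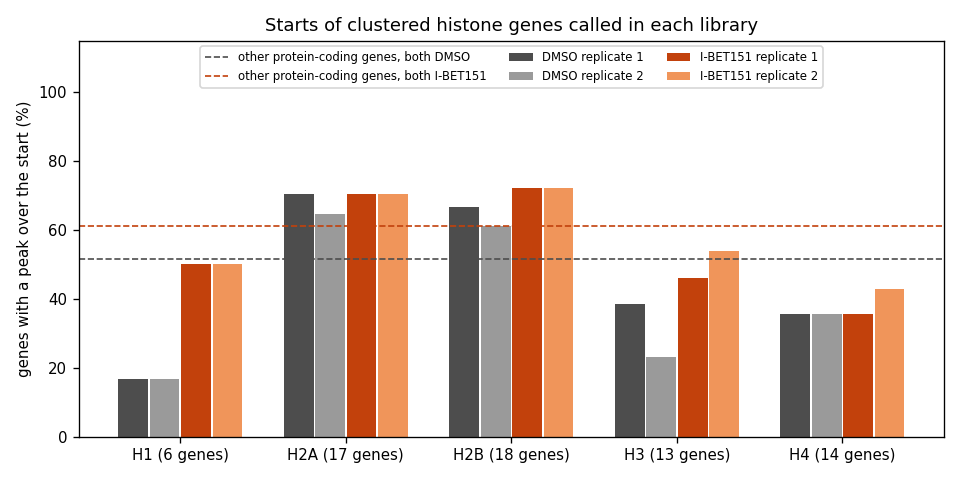
Share of the genes of each histone class with a peak over the start (y axis, percent) in each library (bars, no error bars, since each is 1 library), with dashed lines for the other protein-coding genes called in both libraries of a condition. H2A and H2B bars lie above both lines in I-BET151, and the H3, H4 and H1 bars lie below the I-BET151 line.

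Gained regions, which had a peak in each I-BET151 list and none with DMSO, numbered 7 of 60 (11.7%), against 17.0% of all regions. Of these, 5 covered a start, which is 16.1% of the 31 member regions over a start, against 9.81% of the regions over any protein-coding start. No member region was lost, that is called in both DMSO lists and in no I-BET151 list, against 2.37% of all regions. The gained share over starts rests on 5 regions and was not tested. The count changed with the length of the lists and with the libraries used, and the cause was not tested. For these alternatives no share over all regions or genes is given here, so the counts below are not read as a result about the members. When each list was reduced to its 38295 strongest peaks, 1 member region was gained and 6 were lost, and the members with a region called in both libraries numbered 35 with DMSO and 19 with I-BET151. Without DMSO replicate 1 there were 12 gained regions, without I-BET151 replicate 1 there were 14, and without DMSO replicate 2 there were 7 lost regions.

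The gained starts belonged to every class but H2A. H1-3, a linker histone gene (chr6:26234548-26235514), was called at percentiles of 82.6 and 68.6, with 18 and 21 reads at the summit. H2BC9 (chr6:26251437-26251763) was called at 76.0 and 38.9, with 23 reads in each list. H4C9 (chr6:27139106-27140081) was called at 59.9 and 43.5, with 13 and 18 reads. For the H3 genes, H3C4 (chr6:26197252-26197627) was called at 49.2 and 39.2, with 17 and 37 reads, and H3C10 (chr6:27809867-27810216) at 49.1 and 60.1, with 16 and 48 reads. H1-3 was the highest of the gained starts in both I-BET151 lists.

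The remaining gained regions covered no start. One lay over the 3′ end of H3C7 (chr6:26249951-26250321; percentiles of 22.4 and 50.7) and the other after the end of H2AC25 (chr1:228433455-228433802; percentiles of 45.5 and 86.5). The lists give no value for a region that was not called, so the reads at these places in the DMSO libraries were not analysed here. At pileups of 11 to 48 reads the counting error is large, and it comes on top of the spread between libraries.

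When the regions called in every list were ranked among themselves, most member regions had a lower mean rank with I-BET151, but few passed the test singly. Of the 25627 regions shared by all 4 lists, 26 belonged to members. Within each list, all shared regions were ranked among themselves by fold enrichment, and these ranks were turned into normal scores. The rank shift is the mean score with I-BET151 minus that with DMSO, tested with limma over all shared regions. The percentile is a rank among all peaks of a list, so it can differ in sign from the rank shift. The start regions of H3C2, H4C3, H4C4, H2BC12/H2AC12 and H2AC15/H2BC15 had a negative rank shift but a higher mean percentile with I-BET151. The rank shift was negative in 22 of the 26 (84.6%), against 51.6% of all shared regions, and its median was −0.72, against −0.03 over all shared regions and −0.06 over those at other protein-coding starts. With adjusted p under 0.05, 2 of 26 were called lower (7.69%), against 1.96% of all shared regions, and 0 were called higher, against 3.41%. At an unadjusted p under 0.05 in limma, 6 were lower and 0 higher, beside 3048 lower and 3324 higher of the 25627 shared regions. Both I-BET151 percentiles were below both DMSO percentiles in 7 of 26 (26.9%), against 10.3% of all shared regions, and above both in 2 (7.69%), against 40.8%. By class, the rank shift was negative in 11 of 13 regions near H2A genes (median −0.73), 11 of 14 near H2B genes (−0.64), 5 of 5 near H3 genes (−0.72), 4 of 5 near H4 genes (−0.36) and the 1 near an H1 gene, where a region near several genes counts in each class.

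The first region called lower covered the start of H2AC4 (chr6:26033542-26034002), whose promoter sequence is shown above. Its percentile was 89.5 and 74.7 with DMSO and 14.1 and 50.1 with I-BET151. Both I-BET151 values were below both DMSO values, and they differed widely from each other. The rank shift was −2.05 ± 0.39 (SE), with adjusted p = 0.0126 in limma. Its pileup was 29 and 27 reads in the DMSO libraries against 14 and 35 in the I-BET151 libraries. Without DMSO replicate 1 the adjusted p was 0.0814. Counted as pileup per M reads, the region was 1.08 higher on the log2 scale with I-BET151. After each library was centred on its median region, the I-BET151 minus DMSO difference was −0.85 (adjusted p = 0.0516, limma).

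The second lay over the 3′ end of H2BC12 (chr6:27145612-27146477). Its percentile was 82.6 and 68.4 with DMSO and 34.3 and 56.0 with I-BET151, which did not overlap. The rank shift was −1.39 ± 0.38 (SE), with adjusted p = 0.0443 in limma. The call was lost without DMSO replicate 1 (adjusted p = 0.237), without DMSO replicate 2 (0.246) and without I-BET151 replicate 1 (0.116), with a trend in limma (0.0503), with ranks by −log10 p (0.138) or by pileup (0.219), and with the pileup centred on the median region (0.0754). In log2 pileup per M reads the I-BET151 minus DMSO difference was 1.22, and −0.71 after each library was centred on its median region. A second copy matches 44.8% of the start window of H2BC12. The promoter shared by H2BC12 and H2AC12 itself (chr6:27146798-27147252) had 95.1 and 74.2 with DMSO and 86.7 and 85.5 with I-BET151, and the conditions overlapped.

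Just past the threshold were 2 other shared promoters. That of H2BC11 and H2AC11 (chr6:27132662-27133162) had 95.7 and 89.1 with DMSO and 82.3 and 64.6 with I-BET151, a rank shift of −1.44 with adjusted p = 0.0545 in limma. That of H2AC7 and H2BC7 (chr6:26199120-26199658) had 90.5 and 78.1 with DMSO and 65.6 and 60.0 with I-BET151, a rank shift of −1.32 with adjusted p = 0.0570. In each of them both I-BET151 values lay below both DMSO values.

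Of the 26, 4 had a positive rank shift. They were the region at the 5′ end of the H2BC6 gene model (0.45), the promoters of H2AC25/H2BC26 (0.22) and H2BC8/H2AC8 (0.10) and a region by H4C12 (0.13). H4C12 has a second copy of 67.5% of its start window. None of these 4 regions passed the test.

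**Figure D3:**
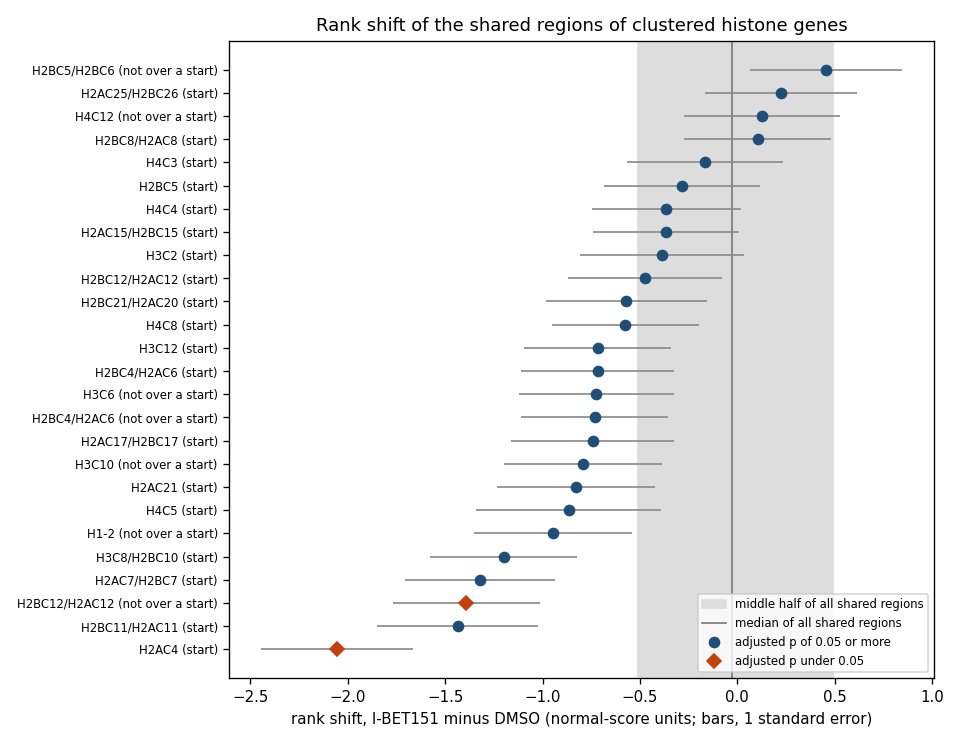
Rank shift (x axis, normal-score units, I-BET151 minus DMSO) of the 26 member regions called in every list, with bars of 1 standard error, 2 libraries per condition. The grey band is the middle 50% of all 25627 shared regions. Of the points, 22 lie below 0 and the 2 diamonds, at H2AC4 and by H2BC12, have adjusted p under 0.05. With the pileup per M reads all 26 are positive, including these 22.

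In percentiles, the median difference of the 26 regions was −6.81, against 6.21 over all shared regions, 3.69 over those at other protein-coding starts and 4.36 over the 10 shared regions near the neighbouring protein-coding genes of the same intervals. It did not hold its sign between lists. Between the replicate 1 lists it was −10.7, against −0.023 over all shared regions. Between the replicate 2 lists it was 5.17, against 15.3. The members thus lay below the median of all shared regions in both, while their own difference was smaller than the spread between the 2 pairs of lists (SD 11.3).

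The local background under the member peaks also differed between the conditions. Fold enrichment divides the pileup by that background, given here as the ratio to the genome background of the list. The rank is thus not independent of it, and the part of the background in the rank shift was not tested. Its median over the 26 regions was 1.41 and 1.43 with DMSO and 2.83 and 3.81 with I-BET151. Over all shared regions it was 1.60 and 1.53 against 2.41 and 2.99. Over those at other protein-coding starts it was 1.86 and 1.77 against 3.40 and 4.24, above the members in every list. The median rise on the log2 scale was 1.15 for the members, 1.09 at other protein-coding starts and 0.79 over all shared regions. In 26 of 26 member regions both I-BET151 ratios were above both DMSO ratios, against 80.6% of all shared regions and 93.2% of those at other protein-coding starts. The median pileup was 30 and 25.5 reads in the DMSO libraries against 25 and 52 in the I-BET151 libraries. When regions were ranked by pileup in place of fold enrichment, the median rank shift of the members was −0.08 and 0 were called in either direction. Ranked by −log10 of the p-value, it was −0.37, with 0 called. Per M reads all 26 were called higher, as were 24614 of the 25627 shared regions, with a median of 1.81 on the log2 scale for the members against 1.901 for all. After centring on the median region, the median was −0.12 for the members, −0.03 over all shared regions and 0.14 over those at other protein-coding starts, with 0 members called.

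**Figure D4:**
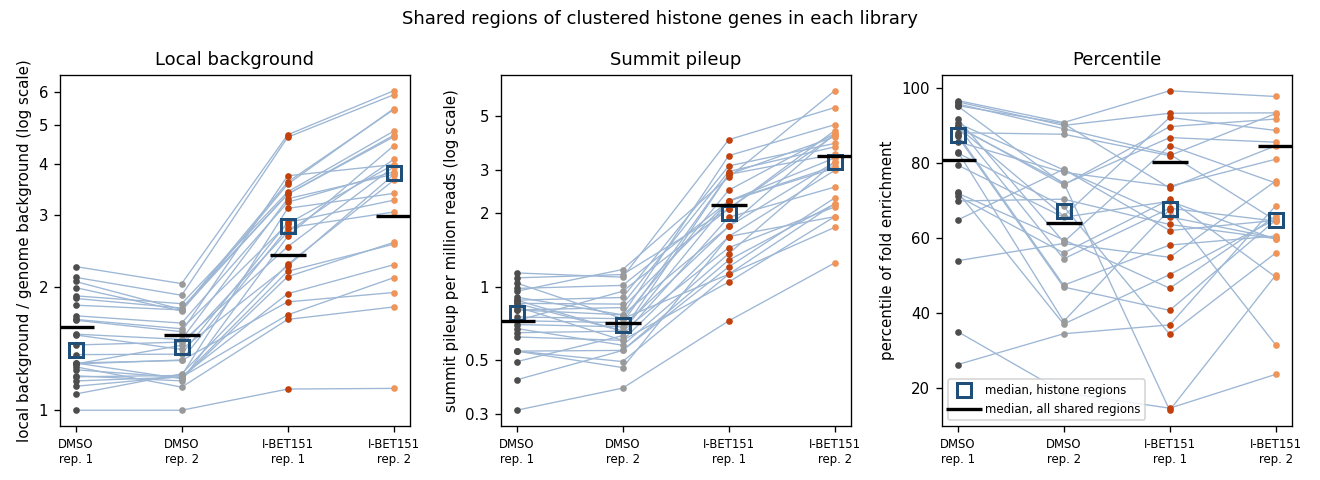
Local background as a ratio to the genome background (left, log scale), pileup at the summit per M reads (middle, log scale) and percentile of fold enrichment (right) of the 26 member regions called in every list. Points are regions, joined across libraries, squares are their medians and black bars the medians of all shared regions. The members' median background is below that of all regions in both DMSO libraries and above it in both I-BET151 libraries. It is below that of regions over other protein-coding starts, which are not drawn, in all 4 libraries.

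The genes that regulate the histone supply were open throughout. All 9 genes of histone gene transcription, all 9 of histone mRNA end processing and all 8 histone chaperones had a start called in every list. Of these 26 starts, 1 was called higher in rank (3.85%) and 0 lower, near the 2.82% and 0.927% of all protein-coding starts called in every list. The one was E2F1, a transcription factor of the G1 to S transition, with percentiles of 29.1 and 36.6 with DMSO and 93.7 and 92.3 with I-BET151, a rank shift of 1.82 and adjusted p = 0.0206 in limma. NPAT had 98.6 and 97.8 with DMSO and 93.1 and 92.2 with I-BET151, which did not overlap, and adjusted p = 0.0942. HINFP had 95.6 and 93.2 with DMSO and 99.5 and 99.3 with I-BET151, also without overlap, with adjusted p = 0.189. SLBP had 83.0 and 58.0 with DMSO and 82.2 and 74.4 with I-BET151, which overlapped. The median rank shifts of the lists were −0.29 for transcription, −0.07 for end processing and −0.14 for chaperones, beside −0.07 over the starts of all other protein-coding genes.

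Histone genes outside the rule, of which H3-4 lies near H2AC25 on chromosome 1, had a median rank shift close to that of the members. Of 15 such genes found in the annotation, 10 had a start called in all 4 lists, 0 were called in either direction and the median rank shift was −0.67. H3-3A, which encodes the replication-independent variant H3.3, had 90.5 and 77.7 with DMSO and 73.0 and 63.8 with I-BET151 (rank shift −1.13, adjusted p = 0.0951, limma). CENPA, the centromeric H3 variant, had 99.4 and 98.9 with DMSO and 99.9 and 99.9 with I-BET151. In H3-3A both I-BET151 values lay below both DMSO values, and in CENPA they lay above. Of the 20 protein-coding neighbours in the same intervals, 7 had a start called in all 4 lists, 0 were called in either direction and the median rank shift was −0.28, with 1 of the 7 starting in a member region.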

How the data were processed

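The authors used Bowtie2 (v2.2.5) to align the ATAC-seq reads to hg38, dropped duplicates and mitochondrial reads, and ran MACS2 (v2.1.2) once per library with no control. The 4 deposited peak lists hold 4 values per peak. As deposited by the authors from MACS2, these are a display score (not used), the summit's fold enrichment as a ratio, −log10 p-value and −log10 q-value. The p-values in the lists reach up to 0.00113, above the limit of 1e-05 in the methods, so that limit was an alternative. Conditions came from the labels.

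Peaks on chromosomes 1 to 22, X and Y sharing 1 bp or more were merged. From fold enrichment and p-value, the pileup and the local background were solved for 100% of the peaks. Reads per library were estimated from the lowest background with the default MACS2 genome size, and intervals of single counts are not given. Ranks were tested with limma 3.58.1 (R 4.3.3, lmFit and eBayes, genome-wide Benjamini-Hochberg adjustment), single values with exact permutation tests (scipy 1.17.1), and copies were searched with BLAST 2.17.0. Both the limma fit and the pileup solution were tested on simulated data. Gained, lost and shared regions, percentiles and letters were computed with Python 3.11.15, numpy 2.4.6 and pandas 2.3.3.

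The members and gene lists were chosen with earlier results of these data known. The members named are those called, gained or lost, the 5 strongest regions, the strongest and weakest of each class, the pair outside the main clusters and those without a region. Those just past the threshold were named after their values were seen, as were H1-2, H3-3A, CENPA and the genes given as examples of the supply lists. Alternatives were other thresholds (−log10 p of at least 10 or 5), equal numbers of peaks, an overlap of 50%, distances of 0 kb and 5 kb, starts only, other rankings and scalings, a trend in limma, a replicate block and leaving out each library.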

Additional observations from a re-analysis of the deposited data

How the results depend on the processing

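The 26 shared member regions gave 2 calls lower in rank. There were 0 with equal numbers of peaks, ranks by −log10 p, ranks by pileup (chosen after seeing the data), pileup per M reads and the same centred, 1 with starts only, 4 with a trend in limma (H2AC4, H3C8/H2BC10, H2BC11/H2AC11 and H2AC7/H2BC7, without the region by H2BC12), and 0 to 3 without 1 library. Calls higher were 0 except for 26 with pileup per M reads. Over all shared regions, calls lower numbered 503 in the main fit, 720 with a trend and 594 at −log10 p of at least 10. Calls higher over all shared regions numbered 875, 1072 and 840 in the same fits. The median percentile difference of −6.81 turned to 8.27 at −log10 p of at least 10, to 4.00 by −log10 p and to 9.58 by pileup, and lay between −12.1 and 3.92 without 1 library. In log2 pileup per M reads it was 1.81, and −0.12 after centring. The median rank shift in normal scores kept its sign where the percentile difference turned. At −log10 p of at least 10 it was −0.46 (13 of 16 negative), against −0.04 over all shared regions, with 3 member regions called lower. By −log10 p it was −0.37 (22 of 26), against 0.007, and by pileup −0.08 (19 of 26), against 0.01. Equal numbers of peaks gave 1 gained and 6 lost regions, 19 members with a region called in both I-BET151 libraries, and a difference of −10 regions per library in place of 9.5. Without 1 library, gained regions numbered 8 to 14, lost regions 0 to 7, the difference of regions per library was 3.5 to 15.5, members called in every DMSO library numbered 35 to 41 and in every I-BET151 library 42 to 46. These counts of gained and lost regions and of members are given without a share over all regions or genes. They are thus not read as a result about the members. The cause of these changes was not tested, except that a shorter list holds fewer peaks by construction. Counts with an overlap of 50%, with −log10 p of at least 5 and within 0 kb or 5 kb stayed within 1.5 times of those reported.

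With the replicate number as a block, 3 member regions were called lower and 0 higher, the third being the H2BC11/H2AC11 promoter (−1.44, adjusted p = 0.0394). Nothing in the labels says what the numbers mark, and the deviations of same-numbered libraries correlated at −0.143. With crossed numbers, added after seeing the data, 5 were called lower and 0 higher. Over all 25627 shared regions, 652 were called lower and 985 higher with the block, and 1567 lower and 1985 higher with crossed numbers. Without a block these were 503 and 875.

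Among 10 single regions under 11 alternatives each, 72 of 110 values kept direction and call, 11 lost the call, 13 gained one and 14 changed sign. Per M reads, H2AC4 (1.08), by H2BC12 (1.22), H2AC15/H2BC15 (2.07), H2BC5 (1.997), H3C8/H2BC10 (1.45), H2BC11/H2AC11 (1.41) and H2AC7/H2BC7 (1.79) turned positive. After centring, H2AC15/H2BC15 (0.14) and H2BC5 (0.069) did. The region at the 5′ end of the H2BC6 gene model turned to −0.061 by −log10 p and to −0.063 by pileup. Without 1 library, the H2BC5 start ranged from −0.56 to 0.014 (without I-BET151 replicate 1), and H2BC8/H2AC8 (−0.019 to 0.17) and H2AC25/H2BC26 (−0.037 to 0.45) were negative without DMSO replicate 2.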
